A study of Mus musculus with 56 samples.

Results

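De novo lipogenesis, the synthesis of fatty acids from carbohydrate carbon, was followed through 10 genes in the liver of mice fed by day or by night. The genes were chosen by name: Acly, Acaca, Acacb, Fasn, Scd1, Elovl5, Elovl6, Me1, Thrsp and Pnpla3. All 10 were found among the 25415 genes listed, by matching identifiers to GENCODE vM21 symbols, and all 10 were among the 25282 genes analysed. The mice were C57BL/6J females. They were 9 weeks old when sampled, lived under 12 h of light and 12 h of dark, ate normal chow without restriction for 7 days, and then received it only in the day (daytime-restricted feeding, DRF) or only in the night (nighttime-restricted feeding, NRF, the control) for 7 days. Both regimens share the strain, sex, diet and lighting and differ in the hours of food, whose clock times the labels do not state beyond day and night. Whole livers were collected from 4 mice per regimen at each of 7 zeitgeber times (ZT, where ZT0 is lights on), 4 h apart from ZT0 to ZT24, giving 14 groups and 56 libraries. The labels do not say in words that each library came from its own mouse, so p-values measure the spread between libraries.

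In the fed liver, citrate leaves the mitochondria and is cleaved to acetyl-CoA, which acetyl-CoA carboxylase turns to malonyl-CoA and fatty acid synthase builds into palmitate with NADPH as reductant. Elongases then lengthen palmitate, and desaturases make it unsaturated. Transcription of the pathway is known to respond to insulin through SREBP-1c and to carbohydrate through ChREBP, and the liver is a main site of the pathway in rodents.

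Levels are given as scaled counts, which are gene counts recovered from the deposited values and multiplied by 1 factor per library. They are linear and not corrected for gene length, and 1 scaled count stands for 304 to 723 recovered counts. Recovered counts summed to between 302799947 and 689876648 per library. Each sum exceeds the average number of reads per sample that the study reports, so recovered counts are not read numbers. Log2 differences are on log2 (scaled count + 1), which understates changes of low genes such as Pnpla3. Log2 values of replicates correlated across genes between 0.965 and 0.990. All 5 hepatocyte markers were present, with a summed level of 95331 to 152103 scaled counts over all libraries. Of 5 adipocyte markers, Adipoq, Plin1 and Lep were not among the genes analysed and the other two (Cfd and Fabp4) summed to at most 1.42. Red blood cell markers had a higher daily mean under DRF in 5 of 5 genes, with a median summed level of 1103 scaled counts against 739.8 under NRF. A mean difference was also called in 2 of 5 hepatocyte markers and in Cela1, the 1 pancreatic acinar marker analysed. Cela1 had a median of 2.02 scaled counts under DRF and 3.10 under NRF. Among adipocyte, Kupffer cell, sinusoidal endothelial, stellate cell and cholangiocyte markers, 0 were called. The part of all these markers in the results below was not tested. In whole liver, fewer cells of a type and less RNA per cell cannot be told apart.

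Upstream sequence was available in a RefSeq promoter table (GRCm38.p6) for 9 of the 10 genes, all but Scd1. For 4 of them, the 250 bases before the annotated start are given, 5′ to 3′ on the strand of the gene. Fasn, Acly and Pnpla3 are shown because their transcripts moved together in time, and Elovl5 because its timing differed, a choice made with their values seen. Capitals mark matches, on either strand, to the CCAAT box (CCAAT or ATTGG), the E-box (CACGTG) and the nuclear receptor hexamer (AGGTCA or TGACCT).
Fasn (chr11:120824548-120824797, minus strand): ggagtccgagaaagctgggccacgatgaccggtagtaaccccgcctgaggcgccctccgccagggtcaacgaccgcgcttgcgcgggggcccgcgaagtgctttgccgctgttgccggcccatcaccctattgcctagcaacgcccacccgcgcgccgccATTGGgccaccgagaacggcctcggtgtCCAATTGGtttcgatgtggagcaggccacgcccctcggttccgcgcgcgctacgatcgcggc
Acly (chr11:100528001-100528250, minus strand): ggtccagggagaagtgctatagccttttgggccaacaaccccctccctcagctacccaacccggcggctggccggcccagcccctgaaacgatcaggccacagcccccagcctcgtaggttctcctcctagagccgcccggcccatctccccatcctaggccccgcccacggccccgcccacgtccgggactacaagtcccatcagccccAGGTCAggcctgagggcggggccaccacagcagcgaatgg
Pnpla3 (chr15:84167566-84167815, plus strand): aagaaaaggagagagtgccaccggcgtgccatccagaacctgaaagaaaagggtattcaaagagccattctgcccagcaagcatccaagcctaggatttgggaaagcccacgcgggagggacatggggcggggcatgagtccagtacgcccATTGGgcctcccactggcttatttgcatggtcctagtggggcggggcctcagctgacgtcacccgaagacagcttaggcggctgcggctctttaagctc
Elovl5 (chr9:77917115-77917364, plus strand): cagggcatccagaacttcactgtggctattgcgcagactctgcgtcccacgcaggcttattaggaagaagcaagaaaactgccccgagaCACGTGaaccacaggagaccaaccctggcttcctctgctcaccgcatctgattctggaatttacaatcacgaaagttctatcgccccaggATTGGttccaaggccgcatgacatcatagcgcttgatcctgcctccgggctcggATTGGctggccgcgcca

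A CCAAT box, which NF-Y binds, stood in the upstream window of 6 of the 9 genes (Acacb, Elovl5, Fasn, Me1, Pnpla3 and Thrsp), and in 33.8% of all 32851 windows of that length. Fasn held 3 matches, 2 of which overlap. They start 90, 62 and 59 bases before the annotated start. Elovl5 had 2 matches, 71 and 17 bases upstream, and was the only gene of the 9 with an E-box, found in 6.02% of all windows. The hexamer stood in Acly and Elovl6 and in 14.02% of windows. The sterol regulatory element (TCACNCCAC) and the D-box (TTATGTAA) matched none of the 9 on either strand, against 1.05% and 0.819% of windows. Me1 has 2 annotated starts, and its match lies before the inner one. The windows of Acaca (chr11:84195188-84195437) and Acacb (chr5:114165268-114165517) lie inside the gene spans given below. The window of Thrsp (chr7:97417551-97417800) lies partly inside its span, and its matches start 79 and 52 bases before the annotated start. The matches of Acacb and Thrsp are therefore not upstream of these spans. These matches describe letters in a window and say nothing of binding.

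All 10 genes had a 24-h rhythm in both regimens, and for 7 of them the peak moved by 8 h or more between regimens. Under DRF 10 of 10 passed the test of a 24-h rhythm, against 34.9% of all genes, and under NRF 10 of 10 passed, against 43.5%. The difference in rhythm between regimens passed in 10 of 10, against 38.7% of all genes. Adjusted p-values of that difference ran from 1.73e-15 for Elovl5 to 0.000676 for Scd1 (limma, Benjamini-Hochberg over all genes). A 12-h component passed in 0 of 10 under either regimen, against 4.69% and 1.98% of genes in the limma fit. At an unadjusted p below 0.05 it was met by 2 genes under DRF (Fasn and Thrsp) and by 0 under NRF. For that unadjusted threshold no share of all genes was computed. The weakest rhythm calls were those of Acaca (adjusted p = 0.0184, and 0.0547 without DRF ZT8 replicate 3) and Scd1 (adjusted p = 0.0155) under DRF. An exact Kendall rank test over the 28 libraries of a regimen gave 9 of 10 under DRF, where 32.1% of genes passed, and 9 of 10 under NRF, where 33.5% passed. It missed Acaca under DRF (exact test, adjusted p = 0.0732) and Scd1 under NRF (exact test, adjusted p = 0.0566).

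**Figure D1:**
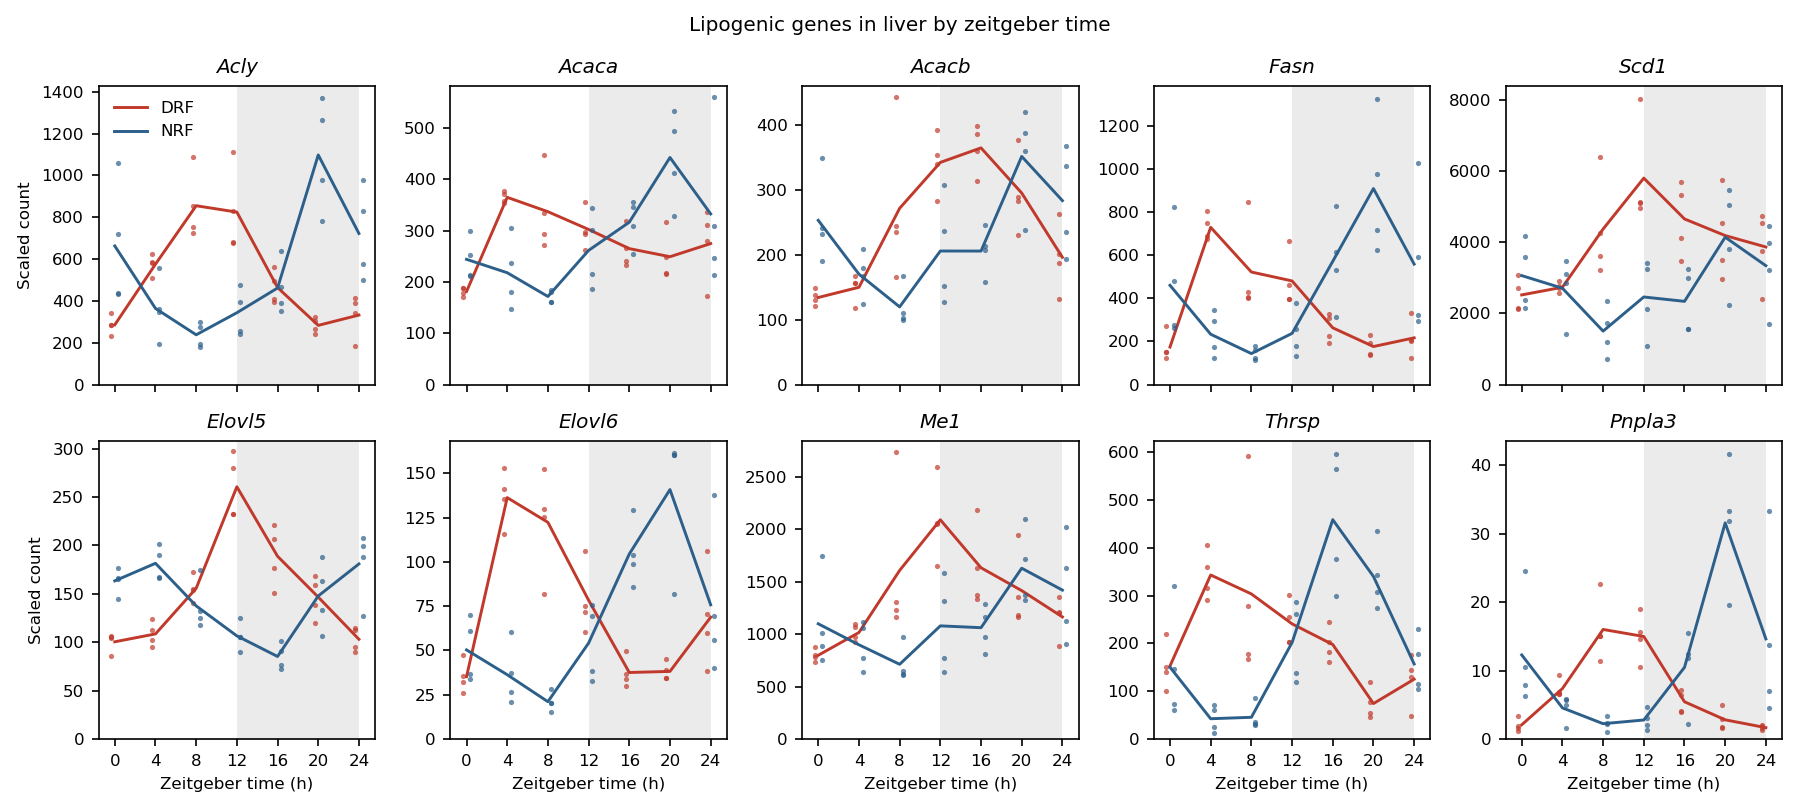
Scaled count (vertical axis) of each of the 10 genes against zeitgeber time in hours, with points for single libraries, lines through the group means (n = 4) and grey for the dark phase. Red is DRF and blue is NRF. Group means of Acly, Acaca, Fasn, Elovl6, Thrsp and Pnpla3 were highest in the light under DRF and in the dark under NRF, while Acacb, Scd1, Elovl5 and Me1 were highest at ZT12 or ZT16 under DRF.

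The genes lie on 7 chromosomes and are described in the order of the pathway, with the span of each whole gene in GRCm38 (GENCODE vM21) and exons together as the counted part. Acly (ENSMUSG00000020917; chr11:100476353-100528000, minus strand) encodes ATP citrate lyase, which cleaves cytosolic citrate to acetyl-CoA. At ZT8 its scaled counts were 727, 753, 1088 and 852 in the DRF libraries and 194, 277, 301 and 179 in the NRF libraries, so that every DRF value lay above every NRF value. The log2 difference was 1.86 ± 0.28 (SE), adjusted p = 3.71e-06. At ZT20 the order was turned, with 303, 239.7, 324 and 265 under DRF and 977, 1368, 779.8 and 1267 under NRF, again without overlap (log2 difference -1.93 ± 0.28 (SE), adjusted p = 1.25e-06). Its fitted peak was at ZT9.43 ± 0.360 h (SE) under DRF and at ZT20.6 ± 0.629 h under NRF. The highest group mean was 3.02 times the lowest under DRF.

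Me1 (ENSMUSG00000032418; chr9:86581371-86695953, minus strand) encodes the cytosolic malic enzyme, a source of NADPH. Its highest group mean was 2091 ± 386 (SD, n = 4) at ZT12 under DRF and 1629 ± 356 (SD, n = 4) at ZT20 under NRF. The lowest were 799 ± 59.1 at DRF ZT0 and 713 ± 173 at NRF ZT8. At ZT12 the DRF libraries held 2595, 1652, 2065 and 2051 and the NRF libraries 638, 772, 1587 and 1321, with every DRF value above every NRF value (log2 difference 1.03 ± 0.27 (SE), adjusted p = 0.00524). At ZT20 the DRF values (1359, 1187, 1948 and 1167) and the NRF values (1376, 1719, 1328 and 2094) overlapped, and the difference of -0.21 ± 0.27 did not pass (adjusted p = 0.719). Of the 7 times, ZT8 and ZT12 were called for Me1, with higher levels under DRF at both.

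The 2 acetyl-CoA carboxylases had different time courses under DRF. Acaca (ENSMUSG00000020532; chr11:84129672-84401651, plus strand) encodes the cytosolic enzyme whose malonyl-CoA feeds synthesis, and Acacb (ENSMUSG00000042010; chr5:114146535-114250761, plus strand) the mitochondrial enzyme whose malonyl-CoA restrains the entry of fatty acids for oxidation. Acaca was highest at DRF ZT4, with 354, 358, 371 and 377, where the NRF libraries held 306, 237, 148 and 180.5 without overlap (log2 difference 0.79 ± 0.22 (SE), adjusted p = 0.00664). Acacb at the same time was 156, 119, 157 and 167 under DRF and 209, 179, 124 and 167 under NRF, which overlapped (log2 difference -0.17 ± 0.25, adjusted p = 0.713). Acacb was highest at DRF ZT16, with 314, 359, 386 and 398, all above the NRF values of 207, 245, 158 and 213 (log2 difference 0.83 ± 0.25 (SE), adjusted p = 0.017, a call lost without NRF ZT16 replicate 3). Under NRF both carboxylases were highest at ZT20, at 443 ± 91.0 for Acaca and 351 ± 79.96 for Acacb. The fitted peak of Acacb was at ZT14.4 ± 0.539 h under DRF and ZT20.3 ± 0.725 h under NRF, and that of Acaca at ZT8.02 ± 0.947 h and ZT19.1 ± 0.755 h.

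Fasn (ENSMUSG00000025153; chr11:120805846-120824547, minus strand) encodes fatty acid synthase. Its DRF libraries held 122, 273, 150.2 and 150.0 at ZT0 and 748, 687, 804 and 675 at ZT4, and the DRF values at ZT4 all exceeded the NRF values of 344, 293, 122 and 173. The log2 difference at ZT4 was 1.75 ± 0.38 (SE), adjusted p = 0.000467. At ZT20 the NRF libraries held 714, 1323, 622 and 974 and the DRF libraries 141, 139, 231 and 193, 5.03-fold lower on the fitted scale (log2 difference -2.33 ± 0.38 (SE), adjusted p = 9.75e-06). Its spread between libraries was wide. At NRF ZT24 the values were 321, 295, 592 and 1025, and they overlapped with the DRF values of 125, 204, 331 and 206. The log2 difference there was -1.26 ± 0.38 (SE), adjusted p = 0.0172, and the call was lost without DRF ZT24 replicate 1, NRF ZT24 replicate 3 or NRF ZT24 replicate 4.

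Scd1 (ENSMUSG00000037071; chr19:44394455-44407879, minus strand) encodes the stearoyl-CoA desaturase that makes monounsaturated fatty acids, and it had the highest level per kb of exon of the 10. At ZT8 the DRF libraries held 4254, 3231, 6384 and 3608 and the NRF libraries 1725, 710.4, 2359 and 1209, which did not overlap (log2 difference 1.62 ± 0.35 (SE), adjusted p = 0.00097). At ZT20 they were 3489, 4536, 5745 and 2972 under DRF and 3820.2, 5468, 2238 and 5033 under NRF. These overlapped, with a log2 difference of 0.05 ± 0.35 (adjusted p = 0.97). Scd1 was higher under DRF at ZT8, ZT12 (adjusted p = 0.00602) and ZT16 (adjusted p = 0.0375) and was called lower at 0 of the 7 times. The ZT12 call was lost without NRF ZT12 replicate 1, and the ZT16 call without DRF ZT16 replicate 2, 3 or 4 or NRF ZT16 replicate 1 or 3. Its highest group mean was 5799.8 ± 1484 (SD, n = 4) at DRF ZT12. Its deposited values, and those of Me1, were too high for the wholeness of the recovered counts to be judged. Below the limit of 100000 counts, 3 libraries were judged for Acly, 11 for Acaca, 15 for Fasn and 24 for Acacb.

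The elongases were timed apart. Elovl6 (ENSMUSG00000041220; chr3:129532355-129638495, plus strand) lengthens palmitate towards stearate, and Elovl5 (ENSMUSG00000032349; chr9:77917364-77984519, plus strand) acts mainly on polyunsaturated fatty acids. Elovl6 at ZT8 was 152, 81.7, 129.9 and 125 under DRF and 20.2, 20.6, 28.1 and 15.5 under NRF, a 5.55-fold difference without overlap (log2 difference 2.47 ± 0.32 (SE), adjusted p = 1.59e-07). At ZT20 it was 34.2, 38.9, 34.5 and 45.2 under DRF and 160.0, 161, 81.6 and 160.3 under NRF, with every DRF value below every NRF value (log2 difference -1.81 ± 0.32 (SE), adjusted p = 3.56e-05). Elovl5 at ZT12 was 297, 279.7, 233 and 233 under DRF and 106, 89.7, 125 and 106 under NRF, without overlap (log2 difference 1.28 ± 0.15 (SE), adjusted p = 1.11e-08). At ZT4 the order was opposite, with 95.4, 113, 102 and 124 under DRF below 167, 168, 191 and 201 under NRF (log2 difference -0.74 ± 0.15 (SE), adjusted p = 0.000222). Of the 10 genes, Elovl5 alone was called lower under DRF at ZT4. Its fitted peak was at ZT13.2 ± 0.425 h under DRF and ZT2.20 ± 0.563 h under NRF.

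Thrsp (ENSMUSG00000035686; chr7:97412938-97417730, minus strand) encodes a small nuclear protein induced by thyroid hormone and carbohydrate and linked to lipogenic transcription. At ZT4 its scaled counts were 405, 291, 317 and 359 under DRF and 61.0, 71.8, 11.9 and 25.6 under NRF, without overlap. The fitted difference was 9.68-fold (log2 difference 3.27 ± 0.46 (SE), adjusted p = 5.08e-07). At ZT20 the values were 53.7, 45.8, 120.3 and 77.2 under DRF and 308, 435, 274 and 342 under NRF (log2 difference -2.26 ± 0.46 (SE), adjusted p = 0.000331). Under NRF its highest group mean (459 ± 143 at ZT16) was 10.8 times its lowest (42.6 ± 28.4 at ZT4).

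Pnpla3 (ENSMUSG00000041653; chr15:84167837-84187236, plus strand) encodes a lipid droplet protein of the patatin-like family whose transcript is known to rise with carbohydrate feeding. It had the lowest level of the 10. At ZT20 the DRF libraries held 2.92, 1.58, 4.99 and 1.77 scaled counts and the NRF libraries 31.9, 41.6, 19.5 and 33.4, an 8.76-fold lower value under DRF on the fitted scale (log2 difference -3.13 ± 0.43 (SE), adjusted p = 3.98e-07). At ZT12 the order was turned, with 19.1, 10.6, 14.7 and 15.7 under DRF and 1.34, 2.06, 4.68 and 3.08 under NRF (log2 difference 2.13 ± 0.43 (SE), adjusted p = 0.000265). The groups did not overlap at either time. Its recovered counts ranged from 561 to 28664 per library.

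The calls at the same clock time were counted over the 10 genes. At ZT8, 9 of 10 genes were higher under DRF and 0 lower, against 5.64% and 7.28% of all genes, and the exception was Elovl5 (log2 difference 0.19 ± 0.15, adjusted p = 0.517). At ZT20, 6 of 10 were lower (Acly, Acaca, Fasn, Elovl6, Thrsp and Pnpla3) and 0 higher, against 6.02% and 7.68% of genes. At ZT4, 6 of 10 differed, of which 5 were higher (10.8% of genes) and 1, Elovl5, was lower (9.56%). At ZT12, 7 of 10 were higher, all but Acaca, Elovl6 and Thrsp, and 0 lower (7.00% and 8.10%). The ZT12 count was 4 without NRF ZT12 replicate 1. At ZT16, 5 of 10 differed. Acacb, Scd1 and Elovl5 were higher while Fasn and Elovl6 were lower (8.71% and 6.39%). The ZT16 count of 5 went to 3 when DRF ZT16 replicate 2, 3 or 4 or NRF ZT16 replicate 1 or 3 was left out. The calls nearest the threshold, Acly at ZT4 (adjusted p = 0.0484) and Fasn at ZT16 (adjusted p = 0.0477), were lost when any of 31 and 30 single libraries, respectively, was left out.

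At lights on, ZT0, 5 of 10 were lower under DRF (Acly, Acacb, Fasn, Elovl5 and Pnpla3) and 0 higher, against 7.98% and 7.97% of genes, a count that was 3 without NRF ZT0 replicate 3. At ZT24, 4 of 10 were lower (Acly, Fasn, Elovl5 and Pnpla3) and 0 higher (6.91% and 7.11%). ZT0 and ZT24 are the same clock time, and within a regimen 0 of 10 genes differed between them in limma, against 3.09% of all genes under DRF and 7.84% under NRF. At an unadjusted p below 0.05, 3 genes (Acaca, Acacb and Elovl6) differed under DRF and 0 under NRF. The share of all genes at that unadjusted threshold was not computed. The median log2 difference of the 10 genes was 1.71 at ZT8 and -1.32 at ZT20, where the median of all genes was 0 and -0.000712.

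**Figure D2:**
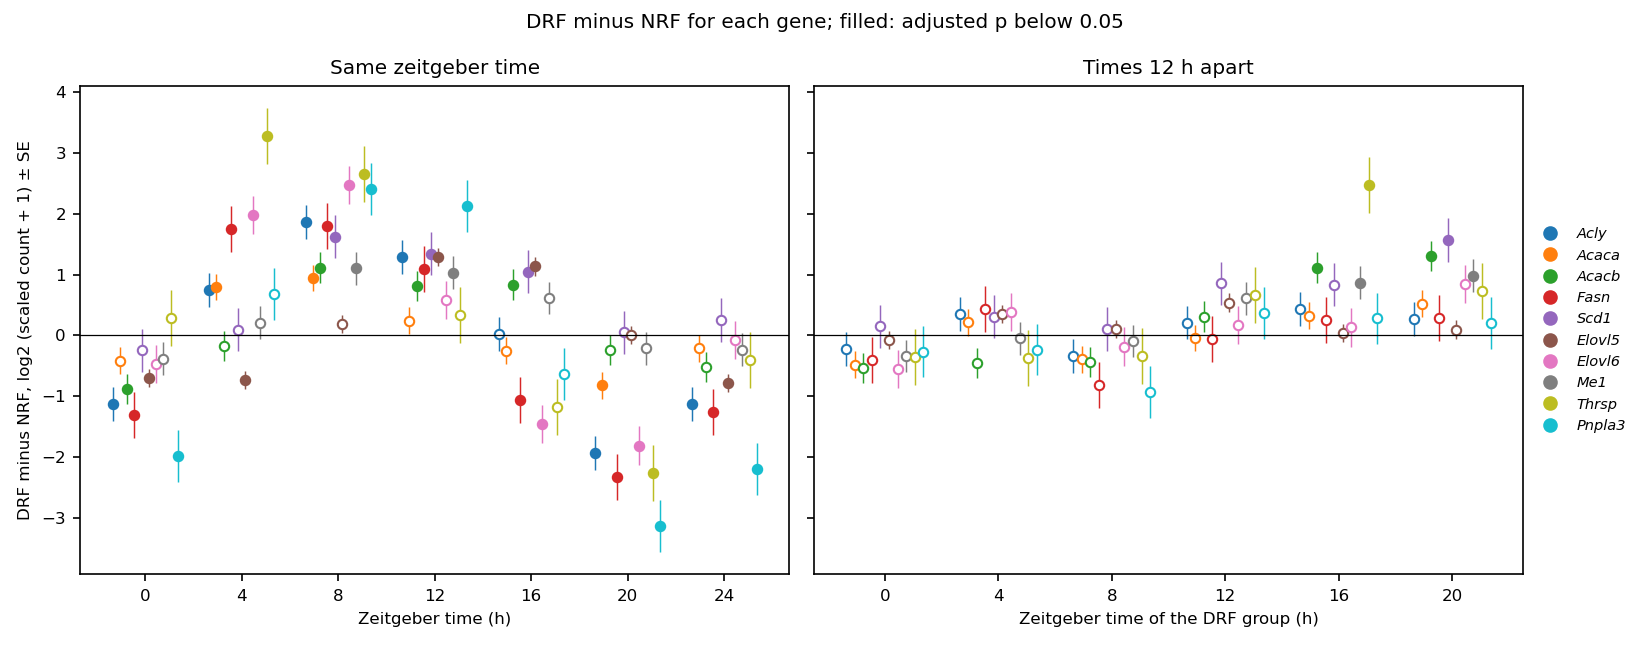
Difference between regimens (DRF minus NRF, log2 of scaled count + 1, ± SE, 4 libraries a group) for each gene, at the same zeitgeber time on the left and at times 12 h apart on the right, against the zeitgeber time in hours of the DRF group. Filled points have an adjusted p below 0.05. On the left, 9 filled points lie above 0 at ZT8 and 6 below 0 at ZT20, and on the right 6 points are filled, at DRF ZT16 and ZT20.

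A second set of comparisons placed each DRF group beside the NRF group 12 h away. Because the hours of food are not stated, the feeding phase was taken as the whole light phase for DRF and the whole dark phase for NRF. On that assumption the hours since the start of the feeding phase were equal, and the light phase was opposite. These comparisons use the same libraries as those at equal clock time. At DRF ZT0, ZT4, ZT8 and ZT12, 0 of 10 genes differed, where 2.60%, 14.6%, 11.5% and 1.54% of all genes did in limma. At an unadjusted p below 0.05, 2, 1, 2 and 3 of the 10 genes differed in these 4 comparisons. The shares of all genes are at the adjusted threshold and are no background for these unadjusted counts. That no difference was called in these genes does not show that levels were equal. For Fasn, DRF ZT8 minus NRF ZT20 was -0.82 ± 0.38 (SE) on the log2 scale, and for Elovl5, DRF ZT12 minus NRF ZT24 was 0.54 ± 0.15 (SE), adjusted p = 0.0501. That Elovl5 difference passed when any of 17 single libraries was left out.

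In the hours after the feeding phase, 3 genes differed at each of 2 times. DRF ZT16 against NRF ZT4 gave higher levels under DRF for Acacb (log2 difference 1.11 ± 0.25 (SE), adjusted p = 0.00124), Me1 (0.87 ± 0.27 (SE), adjusted p = 0.02) and Thrsp (2.48 ± 0.46 (SE), adjusted p = 0.000143), and 0 lower, against 9.42% and 7.78% of genes. The Thrsp values were 244, 162, 182 and 203 at DRF ZT16 and 61.0, 71.8, 11.9 and 25.6 at NRF ZT4, which did not overlap. DRF ZT20 against NRF ZT8 gave higher levels for Acacb (log2 difference 1.31 ± 0.25 (SE), adjusted p = 0.000218), Scd1 (1.57 ± 0.35 (SE), adjusted p = 0.00154) and Me1 (0.98 ± 0.27 (SE), adjusted p = 0.00837), and 0 lower, against 7.82% and 8.46%. Acacb held 289, 283, 377 and 231 at DRF ZT20 and 98.7, 109.9, 167 and 103 at NRF ZT8. Me1 and Acacb were called in both of these comparisons. The Me1 calls were lost without DRF ZT16 replicate 4, NRF ZT4 replicate 3 or NRF ZT4 replicate 4 in the one and without DRF ZT20 replicate 3 in the other.

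Cosine fits on scaled counts placed peaks and phase shifts, where the study calls a shift of 0 to 4 h phase-locked and one of 8 to 12 h phase-inverted. By these definitions 7 of the 10 genes were phase-inverted, 3 lay between the classes and 0 were phase-locked. Among the 5838 genes rhythmic under both regimens the shares were 50.9%, 24.7% and 24.3%, so that 7 of 10 is not read as particular to these genes. Intervals are 95% intervals by the delta method, and an upper end that passed 12 h is given as 12 h, the largest shift there is. Fasn shifted by 11.97 h ± 0.847 (SE; 95% interval 10.3 to 12 h), Elovl6 by 11.8 h ± 0.661 (10.4 to 12 h) and Acly by 11.2 h ± 0.725 (9.73 to 12 h). Acaca shifted by 11.04 h ± 1.21, Elovl5 by 10.96 h ± 0.705 and Pnpla3 by 10.5 h ± 0.784. Thrsp shifted by 9.48 h ± 0.831, and its interval of 7.81 to 11.1 h reached just below 8 h.

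The 3 genes between the classes were Scd1, Me1 and Acacb. Scd1 shifted by 7.54 h ± 1.498 (4.53 to 10.5 h) and Me1 by 7.06 h ± 1.31 (4.43 to 9.70 h), so that both intervals held 8 h. Acacb shifted by 5.84 h ± 0.903, and its interval of 4.02 to 7.65 h held neither 4 h nor 8 h. It also did not overlap with the interval of Acaca (8.61 to 12 h). Fits on the log2 scale left each of the 10 genes in its class.

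Counted from the start of the feeding phase (ZT0 for DRF, ZT12 for NRF), the Fasn peak came 7.58 h into that phase in DRF and 7.61 h into it in NRF, and the Elovl6 peak at 6.76 and 6.52 h. For Acacb these times were 14.4 h in DRF and 8.27 h in NRF, for Scd1 13.6 and 9.09 h, and for Me1 12.9 and 7.99 h. Elovl5 peaked after the feeding phase in both, at 13.2 and 14.2 h. Amplitudes are given without a test. Thrsp had an amplitude of 121 ± 24.9 scaled counts (SE) under DRF and 209 ± 24.6 under NRF, Acaca 62.8 ± 16.6 and 111 ± 24.4, and Pnpla3 7.62 ± 0.690 and 12.02 ± 2.31. The fitted amplitude was larger under DRF for Elovl5 (68.9 ± 6.91 against 45.6 ± 6.39), Me1 (513 ± 98.9 against 359 ± 103), Scd1 (1266 ± 289.9 against 949.6 ± 285) and Acacb (116 ± 15.7 against 93.2 ± 18.5). The DRF to NRF ratio was 0.888 for Acly, 0.733 for Fasn and 0.983 for Elovl6. All these amplitudes and ratios are in scaled counts. On the log2 scale the Scd1 amplitude was smaller under DRF (0.461 ± 0.0985 (SE) against 0.556 ± 0.168). Those of Elovl5, Me1 and Acacb stayed larger under DRF on that scale.

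**Figure D3:**
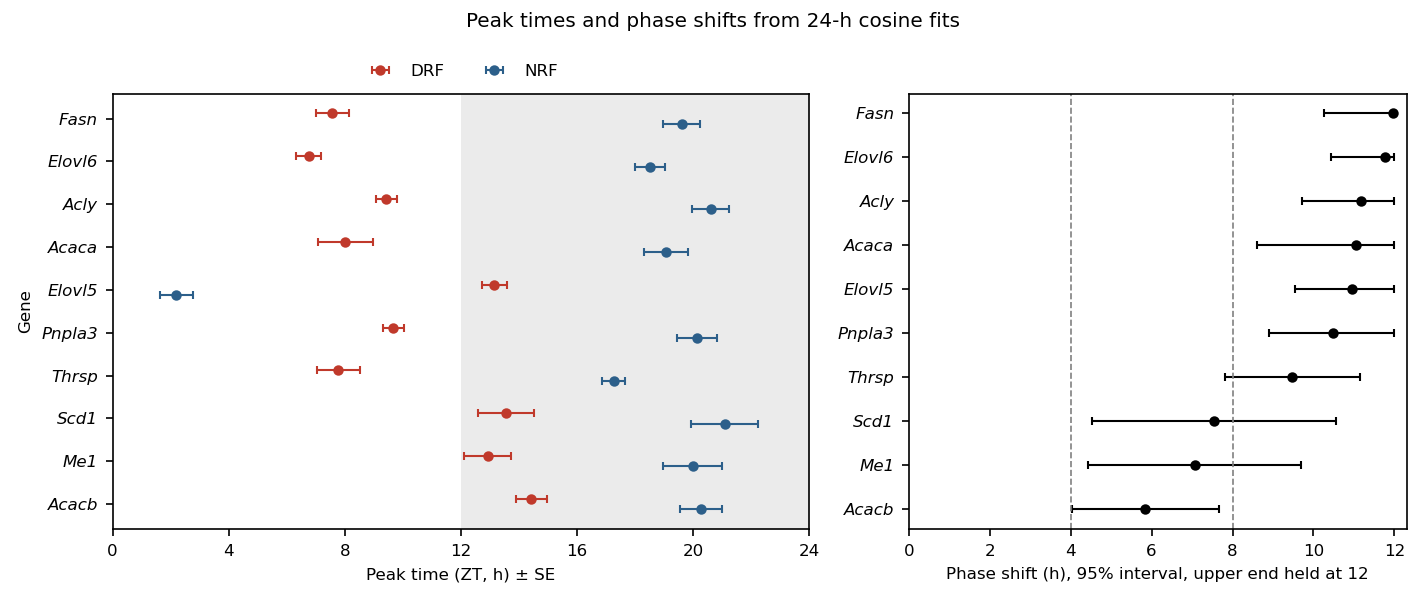
Left, fitted peak time in ZT hours (± SE) of each gene under DRF (red) and NRF (blue) from cosine fits to 28 libraries each, with grey for the dark phase. Right, the phase shift in hours with its 95% interval and dashed lines at 4 and 8 h. Acacb, Me1 and Scd1 lie left of the line at 8 h.

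The daily mean differed in 3 of the 10 genes, all 3 higher under DRF, against 4.09% of all genes higher and 2.68% lower. The rhythm-adjusted mean of Scd1 was 4184 ± 214 scaled counts (SE, 28 libraries) under DRF and 2694 ± 202 under NRF, a log2 difference of 0.71 ± 0.14 (SE), adjusted p = 0.000298. The 28 DRF libraries ran from 2129 to 8023 with a median of 3684. That of Me1 was 1461 ± 74.2 and 1103 ± 70.3, a log2 difference of 0.41 ± 0.11 (adjusted p = 0.0096). For Elovl5 the means were 161 ± 5.16 and 138 ± 4.64, with a difference of 0.20 ± 0.06 (adjusted p = 0.0348), a call that was lost when any of 8 single libraries was left out. Acacb (0.27 ± 0.10, adjusted p = 0.107) passed only without NRF ZT12 replicate 3. The other six differed by -0.09 ± 0.16 for Pnpla3 to 0.43 ± 0.18 for Thrsp, with adjusted p-values of 0.167 or more.

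**Figure D4:**
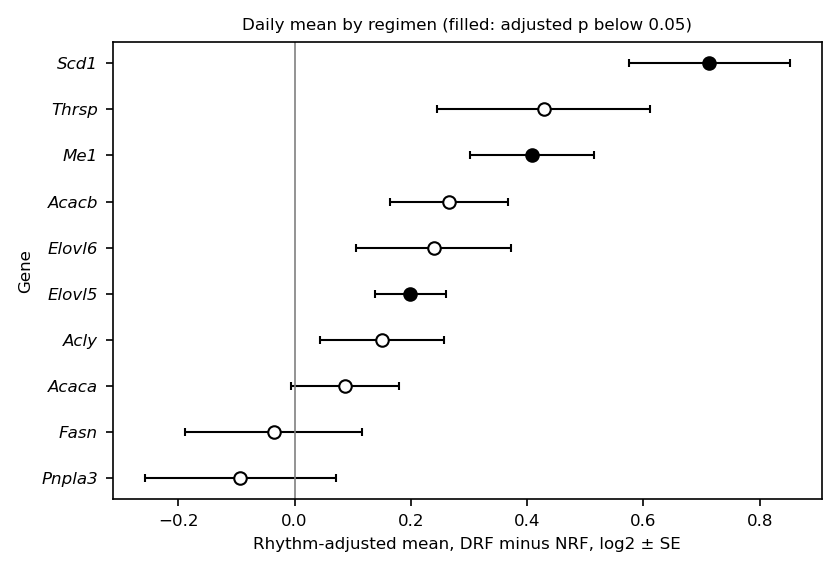
Difference in rhythm-adjusted mean between regimens (horizontal axis, DRF minus NRF, log2 of scaled count + 1, ± SE) for each gene from the fit to all 56 libraries. Filled points (Scd1, Me1 and Elovl5) have an adjusted p below 0.05, and all 3 lie to the right of 0.

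Within a group, most pairs of the 10 genes deviated together between libraries. Over the 56 libraries, Pearson correlations of log2 values for the 45 pairs of genes ran from -0.158 to 0.907 with a median of 0.627. After the mean of each group was taken away, they ran from 0.109 to 0.899, with a median of 0.732. The points of each pair share a library and its scaling, so these values are descriptions. Elovl5 had the lowest median correlation with the other nine in both (0.409 and 0.388), and Me1 the highest within groups (0.816). In a number of libraries 10 of 10 genes lay above their group means, among them NRF ZT24 replicate 4, NRF ZT0 replicate 3 and NRF ZT12 replicate 3. In others 0 of 10 did, among them NRF ZT24 replicate 2 and DRF ZT24 replicate 1. The SD between libraries of a group was smallest for Elovl5 (0.214 on the log2 scale) and largest for Thrsp (0.661).

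**Figure D5:**
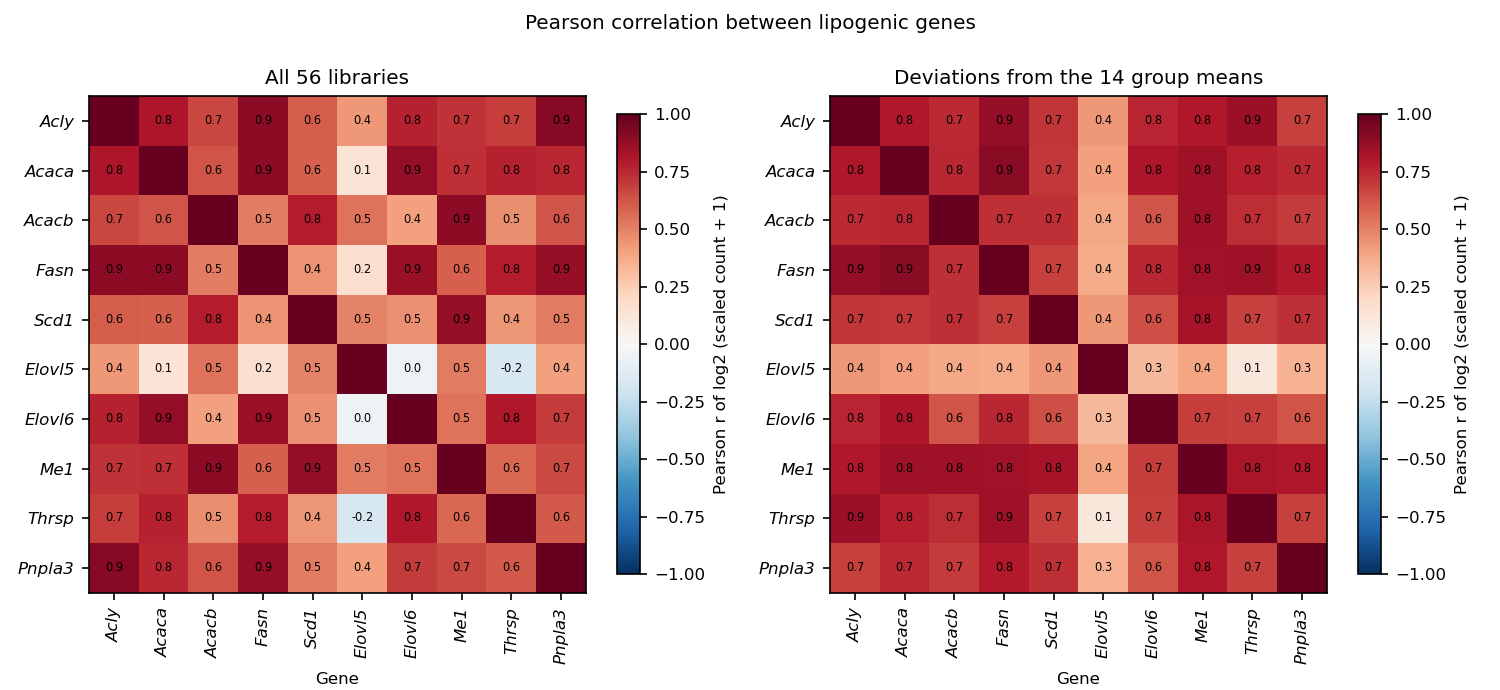
Pearson correlation of log2 (scaled count + 1) between each pair of the 10 genes (both axes), over all 56 libraries on the left and over deviations from the 14 group means on the right, with colour from -1 to 1. Elovl5 has the lowest median correlation in both panels (0.409 and 0.388).

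The genes most like the 10 as a set, by Pearson correlation over the 56 libraries with the mean of their z-scored log2 values, were Gm5182 (r = 0.904), Eno1 (0.890), Chrna4 (0.874), Edem1 (0.845) and Pgd (0.841). Eno1 encodes a glycolytic enolase and Pgd an NADPH-forming enzyme of the pentose phosphate pathway. For single genes, Chrna4 was the nearest to Acly (r = 0.938) and to Pnpla3 (r = 0.946), Acly to Fasn (0.898), Me1 to Scd1 (0.877) and to Acacb (0.893), Acacb in turn to Me1, Acsl5 to Elovl5 (0.866) and Akr1c19 to Thrsp (0.880). Acsl5 encodes a long-chain acyl-CoA synthetase. Elovl6 was nearest to Gm35986 (r = 0.921), an antisense gene that overlaps 0.529% of its exon bases. Whether strand was used in counting is not given in the sources used here, so reads in that overlap cannot be told apart. Pnpla3 shared 6.78% of its exon bases with Gm49513 on the same strand. Me1 shared 0.78% with A330041J22Rik on the opposite strand.

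Acaca was nearest to Gm5182 (r = 0.987), a processed pseudogene on chromosome 12 (10152142 to 10158233, GRCm38). Of the 50-base stretches of Gm5182, 83.0% also occur in Acaca transcripts, and 55.4% of those of the main Acaca transcript occur in Gm5182. Me1 shared 33.4% of its stretches with other genes, most with Gm7049, and Scd1, Elovl6 and Pnpla3 shared under 5%. Acly, Acacb, Fasn, Elovl5 and Thrsp shared 0%. Counts of Acaca and Me1 are uncertain to the extent that reads were split with these copies. Gm5182 averaged 5.26 scaled counts, against a mean of 282 for Acaca under DRF.

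Levels were compared between genes per kb of annotated exon. Under DRF the order was Scd1 (821 ± 291 scaled counts per kb, SD over 28 libraries), Me1 (361 ± 139), Acly (98.0 ± 47.6), Thrsp (93.8 ± 54.2), Elovl5 (43.2 ± 16.4), Fasn (33.4 ± 20.5), Acacb (26.0 ± 10.5), Acaca (16.5 ± 4.18), Elovl6 (11.5 ± 6.62) and Pnpla3 (4.65 ± 3.93). The order under NRF was the same. The SD of each gene includes its rhythm. From Acly onward each neighbouring pair lay closer together than the larger of their SDs, except Elovl6 and Pnpla3 under DRF, while Scd1, Me1 and Acly were each further apart than that. The order depends on the table used. In the transcript table, counts summed over the transcripts of a gene were 13.9 times the gene count for Elovl5 and 10.2 times for Elovl6, against 0.911 to 3.12 for the other eight. By transcript counts Elovl5 would rank 2 under DRF and 1 under NRF. The ratio varied between libraries by a coefficient of variation of at most 2.21% for any of the 10. Comparisons of 1 gene between libraries thus differ little between the tables. This is not an independent check, because transcript counts were derived from a curve fitted, per library, to gene counts. Scd1 and Me1, too high to judge, were kept because their variation was below 5%. The cause of the ratios was not tested.

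By the fitted transcript counts, a single transcript carried most of the count of each gene. The median share over 56 libraries was 99.8% for Fasn-201, 99.9% for Scd1-201, 95.3% for Elovl6-201, 93.6% for Acaca-201 and 91.8% for Acacb-201, and lay above 97% for Elovl5-201, Me1-201, Thrsp-201 and Pnpla3-201. For Acly, Acly-207 had a median of 90.2% but ranged from 4.97% to 93.7%. It held over 50% in 51 of 56 libraries, Acly-201 in 3 and Acly-203 in 1. These 3 transcripts are estimates that share most exons.

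The genes that control the pathway were examined as a list of 13 regulators. Of these, 10 were rhythmic under DRF, 10 under NRF and 11 differed in rhythm. A phase class was given only to list genes rhythmic under both regimens, and of the 9 such regulators 6 were phase-inverted and 3 lay between the classes. On the log2 scale Insig2, 1 of these 3, shifted by 8.25 h ± 0.592 (SE) and was phase-inverted. Srebf1, which encodes SREBP-1, peaked at ZT6.50 under DRF and ZT18.1 under NRF, a shift of 11.6 h ± 0.622 (SE; adjusted p of the rhythm difference 2.01e-15). Its daily mean was lower under DRF (log2 difference -0.29 ± 0.09, adjusted p = 0.0411). Mlxipl, which encodes ChREBP, shifted by 10.7 h ± 1.86 (adjusted p = 0.000167), and Nr1h3, which encodes the oxysterol receptor LXR-alpha, by 11.02 h ± 0.965 (adjusted p = 1.16e-08). Of the endoplasmic reticulum proteins that retain the SREBP escort, Insig1 shifted by 10.1 h ± 0.763 and Insig2 by 7.83 h ± 0.612 (adjusted p = 2.27e-12 and 1.48e-14). Insig2 was higher in daily mean under DRF (log2 difference 0.35 ± 0.10, adjusted p = 0.0184), and the median of the list was -0.0465 where that of all genes was -0.00176.

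Among 13 genes of carbon and NADPH supply, 12 were rhythmic under DRF, 11 under NRF and 10 differed in rhythm. The 11 rhythmic under both held 9 phase-inverted genes, 1 between and 1 phase-locked. Pgd peaked at ZT11.3 and ZT22.2, and Idh1, a cytosolic NADPH-forming dehydrogenase, at ZT10.9 and ZT19.3 (adjusted p = 4.81e-14 and 3.57e-11). Slc2a2, the hepatic glucose transporter, peaked at ZT22.4 under DRF and ZT12.3 under NRF (adjusted p = 3.19e-16). Slc25a1, the mitochondrial citrate carrier, was named after its values were seen. It was rhythmic in both regimens, with peaks at ZT7.56 and ZT7.92 and a shift of 0.355 h ± 1.296, and no rhythm difference was detected (adjusted p = 0.857). Tkt and Slc2a2 were higher in daily mean under DRF, and 0 of the 13 were lower.

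Of 9 other elongation and desaturation genes, DRF gave 2 with a rhythm and NRF 4, and 4 had a rhythm difference. The 2 rhythmic under both, Elovl3 and Scd2, were phase-inverted. Fads1 and Fads2 were not analysed here. Hacd3, a dehydratase of the elongation cycle, differed in rhythm (adjusted p = 6.24e-06) and was called rhythmic under NRF but not under DRF (adjusted p = 3.09e-06 and 0.144). Elovl3 shifted by 10.1 h ± 1.54 (adjusted p = 2.10e-05) and Scd2 by 10.7 h ± 1.62 (adjusted p = 0.00131). Elovl3 averaged 1.87 scaled counts and was lower in daily mean under DRF (log2 difference -0.39 ± 0.11, adjusted p = 0.0176).

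Of 9 genes that act on acetyl-CoA carboxylase or malonyl-CoA, 5 were rhythmic under DRF, 7 under NRF and 7 differed in rhythm. Of the 4 rhythmic under both, 3 were phase-inverted and 1 was phase-locked. Mid1ip1, a partner of acetyl-CoA carboxylase related to Thrsp, peaked at ZT7.51 under DRF and ZT18.7 under NRF (adjusted p = 1.51e-06). Mlycd, which removes malonyl-CoA, peaked at ZT22.4 and ZT8.87 (adjusted p = 5.67e-09), where Fasn peaked at ZT7.58 and ZT19.6. Prkab2, a subunit of AMP-activated kinase, differed in rhythm (adjusted p = 9.36e-05) and was called rhythmic under NRF but not under DRF (adjusted p = 3.92e-05 and 0.12).

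Mitochondria hold a separate route of fatty acid synthesis. Of 5 genes of it analysed, 3 were rhythmic under DRF and 2 differed in rhythm, while adjusted p-values under NRF ran from 0.195 to 0.747, so that none was given a phase class. Cbr4 gave an adjusted p of 0.00591 and Ndufab1, the acyl carrier protein, one of 0.0116, while Oxsm did not pass (adjusted p = 0.0519). Hsd17b8 was not analysed here. These list counts stand beside 34.9% of all genes rhythmic under DRF, 43.5% under NRF and 38.7% with a rhythm difference. The phase classes stand beside 50.9% phase-inverted, 24.7% between and 24.3% phase-locked among all genes rhythmic under both regimens.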

How the data were processed

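RNA-seq was made from 56 livers with a ribosome-depleted, strand-specific protocol, though the labels' molecule field reads polyA RNA. The submitters' processing notes name mm10, GRCm38.p6, CASAVA 1.8 and featureCounts 1.5.0-p3, while the aligner and the use of strand are not given in the sources used here. The gene values deposited by the authors under the name TPM are a score. Value times exon length follows a·ln(1 + f·k), where k is a whole count and a and f are constants of a library. For the transcript values, a curve of this form was fitted to gene counts in genes with 1 annotated transcript. Depending on the library, 49.0% to 55.1% of these transcripts lay within 2% of the curve, so transcript counts are approximate. For 25282 of 25415 genes k was solved (GENCODE vM21 lengths, tolerance 0.05, and for 2109 genes a length found by search), of which 301 were too high to judge and kept. In held-out genes at least 92.4% of values were whole in every library and each of 4 count ranges. What read number 1 recovered count stands for is not known, so no count model was fitted. Scaled counts are f·k, and no further scaling was applied.

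Tests used limma 3.58.1 (R 4.3.3) on log2 (scaled count + 1) over all 56 libraries with Benjamini-Hochberg adjustment over 25282 genes and a threshold of 0.05. Rhythms were regimen-specific cosine and sine terms of 24 h. Peaks were cosine fits by least squares, with delta-method errors. The design assumed linear values or a log-type score, and the score was found. The rank alternative compared 12 templates set 2 h apart. The scripts were tested on simulated data. The genes, lists and tests were chosen with earlier results of these data known. The named genes were the 10 members, 5 regulators, the 3 genes of each other list with the smallest adjusted p of the rhythm difference and the nearest genes by correlation. Circular RNA values were not used here.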

Additional observations from a re-analysis of the deposited data

Results flagged for a closer look

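In 9 of the 140 combinations of gene and group, 1 library lay far from the other three, by Dixon's criterion for 4 samples, which chance meets in about 1 in 20 groups. Of the 9, 3 were in NRF ZT8 replicate 3, where Acacb was at 166.6 scaled counts, Me1 at 972 and Thrsp at 85.3, all above the other libraries of the group. In DRF ZT8 replicate 3, Fasn was at 848 and Me1 at 2739.9, again the highest of the group. Scd1 was at 8023 in DRF ZT12 replicate 1 and Pnpla3 at 9.43 in DRF ZT4 replicate 1, both the highest of 4. Elovl5 was at 85.7 in DRF ZT0 replicate 3 and Elovl6 at 81.6 in NRF ZT20 replicate 3, both the lowest of 4. Without NRF ZT8 replicate 3, 9 of the 10 genes were still called at ZT8, and the same held without DRF ZT8 replicate 3. Without DRF ZT8 replicate 3, Acaca lost its rhythm call under DRF (limma, adjusted p = 0.0547).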

How the results depend on the processing

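Each value was recomputed on the deposited values, with median-of-ratios scaling, with the trend on exon length removed, with pseudocounts of 0.5 and 5, with a minimum mean of 1 scaled count, without ZT0 or ZT24, and without each library in turn. No called direction was reversed. On the deposited values, which are compressed at high levels, the count at ZT16 was 2, the counts 12 h apart were 2 at DRF ZT8 and 5 at DRF ZT20, and ZT24 differed from ZT0 in 4 genes under DRF and 5 under NRF. At DRF ZT12 against NRF ZT24 the count was 1 with the length trend removed, with the pseudocount of 5 and with the minimum mean, and 2 with the other libraries at the shared clock time. The other 135 counts of genes kept within 1.5 times of the values in the report. These 135 do not include the runs that left out 1 library, which are given below. Phase shifts on the deposited values were 9.93 h for Acly, 8.12 h for Acaca, 4.54 h for Acacb, 10.9 h for Fasn, 4.77 h for Scd1 and 4.63 h for Me1, and that of Elovl6 was 10.97 h without ZT0. The rhythm of Acaca under DRF was not called on the deposited values (adjusted p = 0.405) or without ZT0 (0.0666), nor that of Scd1 without ZT0 (0.119). The mean difference of Elovl5 was not called on the deposited values (0.05 log2, adjusted p = 0.0634), without ZT24 (0.20, 0.0558) or without ZT0 (0.18, 0.110). Apart from the construction of each alternative, the cause was not tested.

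With single libraries left out, the counts ran from 9 to 10 for rhythms under DRF, 2 to 4 for mean differences, 3 to 5 at ZT0, 4 to 7 at ZT12, 3 to 5 at ZT16 and 0 to 1 for DRF ZT12 against NRF ZT24. Phase shifts ran from 5.25 to 6.21 h for Acacb and from 6.95 to 7.98 h for Scd1. Leaving out NRF ZT12 replicate 3 gave Acacb a called mean difference (0.32 log2, adjusted p = 0.0310), and that of Elovl5 ran from 0.18 to 0.22.

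The labels give groups the same replicate numbers. Deviations of same-numbered libraries correlated between -0.37 and 0.31, with a mean of 0.00529 against -0.00172 for different numbers. Of 56 libraries, 16 correlated best with their own number. These values cannot show whether same-numbered livers were handled together. With the replicate number as a block, 10, 10 and 10 genes were called for rhythms under DRF, under NRF and for their difference, and 3 for the mean. The block moved the count from 0 to 1 at DRF ZT12 against NRF ZT24 and changed no other count. Without reads, depth gives no interval here. Precision rests on 4 libraries a group.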
